A study of Mus musculus with 8 samples.

Results

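The endoplasmic reticulum (ER) is the main internal calcium store of neurons, and the 10 genes described here encode its release channels, its refilling pumps and the sensors that couple it to the plasma membrane. They were chosen by name from a table of 45706 genes: the IP3 receptor genes Itpr1, Itpr2 and Itpr3, the ryanodine receptor genes Ryr1, Ryr2 and Ryr3, the SERCA pump genes Atp2a2 and Atp2a3, and the sensor genes Stim1 and Stim2. All 10 were measured, and all 10 were among the 17000 genes that passed the filter on low counts and were tested.

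Calcium leaves the store through IP3 receptors, which open when phospholipase C makes inositol trisphosphate, and through ryanodine receptors, which open on cytosolic calcium. SERCA pumps return calcium to the lumen at the cost of ATP. When the lumen runs low, STIM proteins cluster at contacts with the plasma membrane and open ORAI channels there, which is called store-operated entry. Release sites face mitochondria at ER contacts, so the same channels supply calcium to mitochondria.

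The libraries came from hypothalamic tissue around the arcuate nucleus of mice aged 11 to 12 weeks in the random-fed state. Translating ribosome affinity purification (TRAP) pulls GFP-tagged ribosomes out of a homogenate. The bead-bound RNA forms the immunoprecipitate (IP), and the homogenate before capture, with all cell types, gives the input. All 8 libraries, 4 IP and 4 input, carried the same 3 alleles. Mfffl/fl means that both copies of Mff, which encodes mitochondrial fission factor, are floxed. AgRP-IRES-Cretg/wt expresses Cre from the Agrp locus, and RpL10a-GFPfl/wt is the tagged ribosomal protein that the same Cre turns on. Each library was a pool of 3 mice of mixed sexes. AgRP neurons promote feeding. The comparison is therefore IP against input within the knockout, and it cannot show what losing Mff does, since control libraries are not analysed here. Nothing in the labels says whether an IP and an input of the same number share a pool.

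Libraries held 39902127 to 74607637 estimated counts. Each input library detected 23075 to 23612 genes, and each IP library 19179 to 19595. Levels below are CPM, counts scaled to a common library size with TMM factors. Mff itself stood at 124 ± 8.69 CPM in input and 68.4 ± 3.10 CPM in IP (SD, n = 4), a level that does not check the deletion because reads outside the deleted exons still count. Agrp stood at 3.35 ± 0.741 CPM in input and 843 ± 170 CPM in IP. All 12 markers of AgRP neurons were higher in IP, and their summed level went from between 163 and 177 CPM in input to between 3650 and 5270 CPM in IP. The marker lists were chosen with earlier results of these data known, so this count is no independent check of the capture.

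Of the 10 store genes, 5 were lower in IP (Itpr1, Itpr2, Ryr2, Ryr3 and Atp2a2), 1 was higher (Stim1) and 4 did not pass the threshold (Itpr3, Ryr1, Atp2a3 and Stim2) of adjusted p, 0.05 by the quasi-likelihood test of edgeR. Over all tested genes, 20.9% were lower and 24.5% higher, 45.4% in all, so that 54.1% of the called genes were higher (43.3% with upper quartile factors, 63.6% with GC and length offsets). For the same 6 genes that passed the threshold the IP and input libraries did not overlap, 5 with every IP library below every input library and 1 with every IP library above. Over all tested genes, those shares were 24.0% below and 24.1% above, 48.1% in all. The median log2 fold change of the 10 genes was -0.83, beside -0.01 over all tested genes. With offsets for GC content and transcript length it was -0.40, beside 0.09. Itpr3 and Atp2a3 passed the filter on low counts through input, and the median of the other 8 genes, computed after the data were seen, was -0.48 (-0.19 with offsets). IP is bead-bound RNA and input is the whole homogenate. Differences in cell type, in ribosome binding and in untagged RNA held on the beads therefore cannot be told apart. Nor can a smaller number of cells of a type and less RNA per cell, and the counts are shares of a library, not amounts per cell. Below, a gene that fell or rose was lower or higher in IP than in input.

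**Figure D1:**
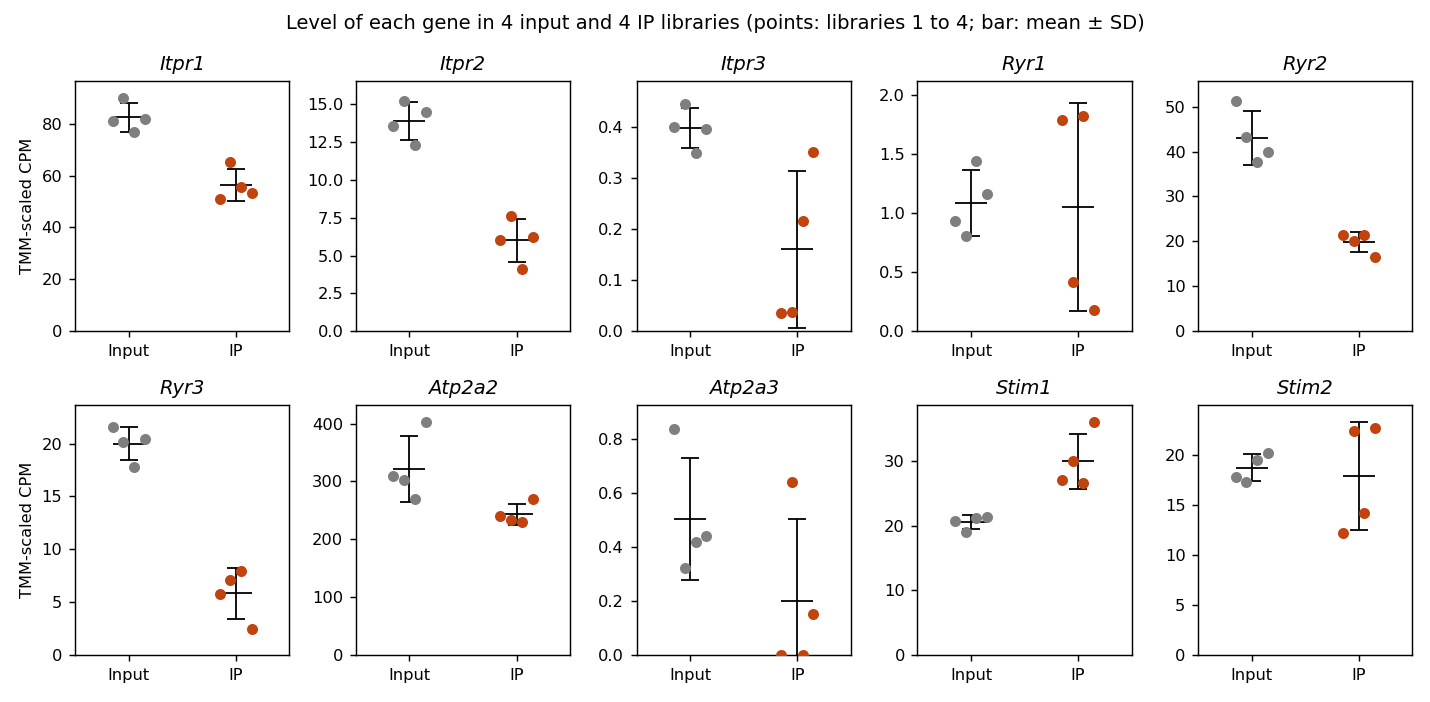
Level of each of the 10 genes in TMM-scaled CPM (vertical axis, from 0, with its own scale in each panel) in the 4 input libraries (grey) and the 4 IP libraries (orange). Points are libraries in the order of their replicate numbers, and the bar is the mean with its SD. Itpr1, Itpr2, Ryr2, Ryr3 and Atp2a2 lie lower in all 4 IP libraries than in any input library, Stim1 lies higher, and Ryr1 spreads from 0.176 to 1.82 CPM within IP.

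Among the IP3 receptors, Itpr1, the main isoform of central neurons, stood at 81.1, 89.9, 76.7 and 82.0 CPM in input replicates 1 to 4 and at 51.1, 65.2, 55.8 and 53.3 CPM in IP replicates 1 to 4. Every IP library was below every input library. The gene fell 1.46-fold, with a log2 fold change of -0.55 ± 0.09 (SE, n = 4 per fraction, adjusted p = 0.000477). With per-library offsets for GC content and transcript length, Itpr1 stood at -0.17 ± 0.09 and did not pass the threshold (adjusted p = 0.139).

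Itpr2, the isoform known from astrocytes and many peripheral tissues, was the less abundant of the pair in every library. Its level was 13.6, 15.2, 12.3 and 14.5 CPM in input and 6.05, 7.62, 4.10 and 6.24 CPM in IP, with the lowest IP value in replicate 3. The fractions were separate, and Itpr2 fell 2.32-fold (log2 fold change -1.21 ± 0.19, adjusted p = 0.000378). The fall was smaller with GC and length offsets (-0.79 ± 0.20, adjusted p = 0.007) and remained past the threshold.

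Itpr3, an isoform best known from secretory epithelia and taste cells, was close to the limit of detection. It had 22, 33, 15 and 17 counts in input and 2, 2, 15 and 14 counts in IP, which is 0.0354, 0.0378, 0.216 and 0.352 CPM in IP. IP replicate 4 alone reached the input range, whose lowest value was 0.349 CPM. Its log2 fold change of -1.32 ± 0.81 did not pass the threshold (adjusted p = 0.214). The gene passed the filter on low counts through the 4 input libraries, with only 2 IP libraries above the filter level of 0.189 CPM.

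Ryr2, the ryanodine receptor of heart muscle and the most abundant of the 3 in this tissue, stood at 51.3, 43.3, 37.6 and 40.0 CPM in input and at 21.5, 20.1, 21.4 and 16.6 CPM in IP. The lowest input value was well above the highest IP value. Ryr2 fell 2.16-fold (log2 fold change -1.11 ± 0.13, adjusted p = 2.71e-05), the smallest adjusted p of the 10. It stood at -0.60 ± 0.11 with GC and length offsets (adjusted p = 0.00102).

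Ryr3, a broadly expressed isoform, had the largest fall of the genes that passed the threshold. Its level was 21.6, 20.2, 17.8 and 20.4 CPM in input and 5.80, 7.07, 7.95 and 2.44 CPM in IP, with IP replicate 4 lowest. The fall was 3.42-fold (log2 fold change -1.78 ± 0.29, adjusted p = 0.000419), and -1.29 ± 0.27 with offsets (adjusted p = 0.00258). Without IP replicate 4 it was -1.52. Ryr3 spans chromosome 2 from 112631355 to 113217096 on the minus strand (GRCm38) and overlaps the protein-coding gene Aven on the opposite strand. No strand setting is stated, so reads of the 2 genes may not be fully separated. The estimated counts of Ryr3 were fractional in all 8 libraries, which does not show such mixing. Those of Atp2a3, which overlaps no other gene, were fractional in 6. Itpr1, Itpr3 and Ryr1 overlap non-coding antisense genes, to which the same limit applies. It also applies to Itpr2, Ryr2, Atp2a2, Stim1 and Stim2, which each overlap 1 opposite-strand gene that is not protein-coding.

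Ryr1, the release channel of skeletal muscle, was scarce. It had 51, 60, 62 and 50 counts in input and 101, 22, 126 and 7 counts in IP, which is 1.79, 0.416, 1.82 and 0.176 CPM. IP replicates 1 and 3 were above every input library and IP replicates 2 and 4 below every one. The log2 fold change was -0.04 ± 0.69 (adjusted p = 0.969). The summed level of 13 striated muscle markers was 10.7, 11.5, 8.18 and 15.1 CPM in IP replicates 1 to 4 and 9.29 to 13.3 CPM in input. The 2 IP libraries with the most Ryr1 had the lowest sums. Of the 7 muscle markers that were tested, 1 was higher in IP, 1 was lower and 5 did not pass the threshold. Myh1 and Tnni2, which missed the filter on low counts, were at 0 in every IP library. The part of muscle RNA in the split was not tested.

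The pump gene Atp2a2, which encodes SERCA2, the pump of heart and brain, had the highest level of the 10. It stood at 310, 303, 270 and 403 CPM in input and at 240, 234, 229 and 270 CPM in IP. The fractions were separate by a narrow margin, with IP replicate 4 just under input replicate 3. Atp2a2 fell 1.32-fold (log2 fold change -0.40 ± 0.11, adjusted p = 0.0122), the smallest fall of the 5. With offsets it did not pass the threshold (-0.21 ± 0.11, adjusted p = 0.14), and without input replicate 4, the highest library, it stood at -0.26 and kept its call (adjusted p = 0.0239).

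Atp2a3, which encodes SERCA3, a pump of blood, endothelial and epithelial cells, had 46, 24, 18 and 19 counts in input and 0, 34, 0 and 6 counts in IP. The libraries overlapped, since IP replicate 2 was above 3 of the 4 input libraries in CPM. Its log2 fold change of -1.35 ± 1.23 did not pass the threshold (adjusted p = 0.402), and its place among the tested genes rested on the 4 input libraries and 1 IP library.

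The sensor gene Stim1 was the member that rose. It stood at 20.8, 19.0, 21.2 and 21.4 CPM in input and at 27.2, 30.0, 26.7 and 36.1 CPM in IP. Every IP library was above every input library, and IP replicate 4 was highest. The rise was 1.46-fold, a log2 fold change of 0.54 ± 0.12 (adjusted p = 0.0029). It was 0.68 ± 0.12 with GC and length offsets (adjusted p = 0.000644) and between 0.41 and 0.68 over all 18 alternative fits, each past the threshold.

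Stim2, which encodes the STIM protein that responds to smaller falls of luminal calcium, stood at 17.8, 17.3, 19.5 and 20.2 CPM in input and at 12.2, 22.3, 14.2 and 22.6 CPM in IP. IP replicates 1 and 3 were below every input library and IP replicates 2 and 4 above. Its log2 fold change was -0.07 ± 0.20 (adjusted p = 0.80), with either sign among the alternative fits. Ryr1 was split by replicate in the opposite sense, high in IP replicates 1 and 3.

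**Figure D2:**
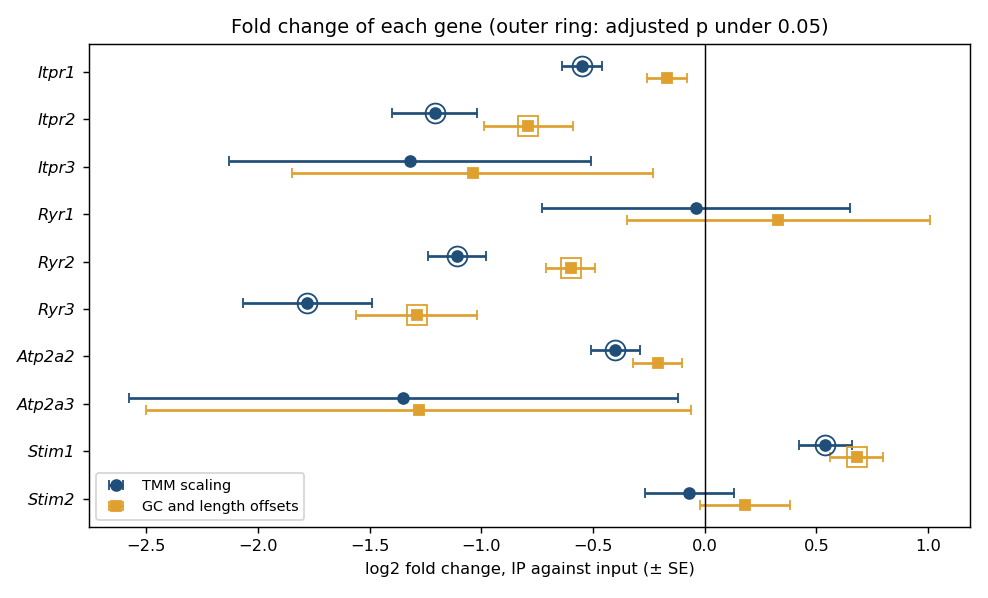
Log2 fold change of IP against input for each gene (horizontal axis, positive is higher in IP), with its SE, from the fit with TMM scaling (blue circles) and the fit with GC content and length offsets (yellow squares). A second ring marks an adjusted p under 0.05. The offsets move all 10 genes to the right, so that Itpr1 goes from -0.55 to -0.17 and Atp2a2 from -0.40 to -0.21 while Stim1 goes from 0.54 to 0.68.

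Over all tested genes, fold changes differed between classes of transcript length. The longest coding transcripts of the IP3 receptor genes were 9.87 kb (Itpr1), 11.7 kb (Itpr2) and 8.99 kb (Itpr3). Those of the ryanodine receptors were 15.4 kb (Ryr1), 16.8 kb (Ryr2) and 15.5 kb (Ryr3), against 4.36 to 4.93 kb for the pump and sensor genes. Among the 881 tested genes over 8 kb the median log2 fold change was -0.35, with 45.9% lower and 13.6% higher in IP. Among the 4521 genes of 4 to 8 kb the median was -0.17, and among the 4823 genes of up to 2 kb it was 0.34. With offsets the medians of these classes were 0.10, 0.10 and 0.11. The offsets are fitted on length, so these medians are levelled by construction. They would also remove any difference between the fractions that follows length. Why longer transcripts were lower in IP was not tested. By that fit 3 of the 10 store genes were lower (Itpr2, Ryr2 and Ryr3) and 1 was higher (Stim1). Over the 16901 genes of that fit, 16.6% were lower and 28.9% higher.

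**Figure D3:**
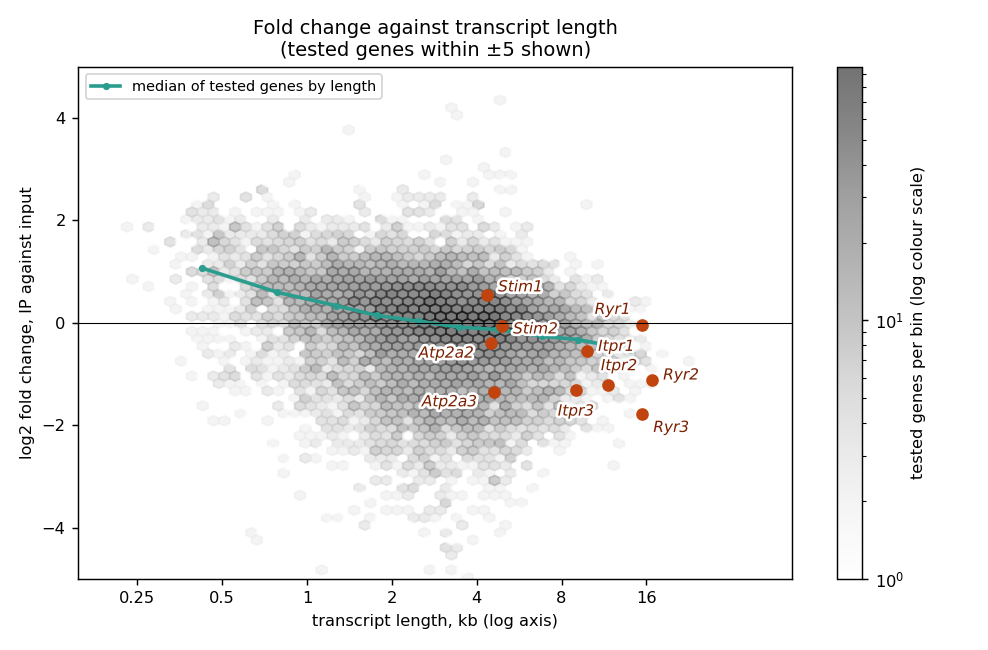
Log2 fold change of IP against input (vertical axis) against the length of the longest coding transcript in kb (horizontal log axis) for tested genes within 5 units of 0, as a density in grey, with the median by length class as a green line. The 10 store genes are in orange. The 6 release channel genes are among the longest transcripts, where the median of all genes is below 0, and all of them but Ryr1 lie below the -0.35 median of genes over 8 kb.

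Per kb of transcript, the quantity that allows levels to be set side by side between genes, Atp2a2 was far ahead of the others at 71.6 ± 12.7 CPM per kb in input and 54.2 ± 4.06 in IP (SD, n = 4). In input the order below it was Itpr1 (8.35 ± 0.554), Stim1 (4.72 ± 0.257), Stim2 (3.79 ± 0.274), Ryr2 (2.56 ± 0.355), Ryr3 (1.29 ± 0.103), Itpr2 (1.19 ± 0.108), Atp2a3 (0.110 ± 0.0493), Ryr1 (0.0707 ± 0.0182) and Itpr3 (0.0442 ± 0.00436). Neighbours overlapped between libraries for Ryr3 with Itpr2 and for Atp2a3 with Ryr1, and the other neighbours were separate.

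In IP the order below Atp2a2 was Stim1 (6.88 ± 0.992 CPM per kb), Itpr1 (5.71 ± 0.628), Stim2 (3.61 ± 1.09), Ryr2 (1.18 ± 0.136), Itpr2 (0.514 ± 0.124), Ryr3 (0.376 ± 0.156), Ryr1 (0.0683 ± 0.0570), Atp2a3 (0.0431 ± 0.0662) and Itpr3 (0.0178 ± 0.0171). Stim1 overlapped with Itpr1, Itpr2 with Ryr3, and the last 3 genes with each other. Within each of the 4 input libraries Itpr1 was above Stim1 per kb, and within each of the 4 IP libraries it was below. That change of order was seen after the values were known and has no test of its own. The levels per kb carry no GC and length offsets, and the order with offsets was not computed.

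**Figure D4:**
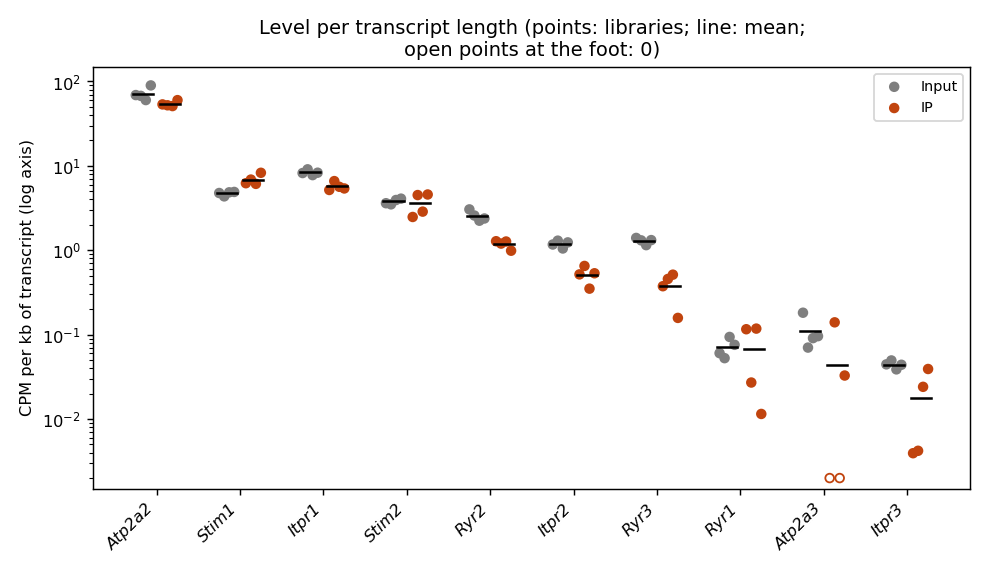
Level per kb of transcript (vertical log axis, TMM-scaled CPM divided by the length of the longest coding transcript) for each gene, ordered by the IP mean, in 4 input libraries (grey) and 4 IP libraries (orange), with the mean as a line. Open points at the foot are the 2 IP libraries in which Atp2a3 had 0 counts. Atp2a2 is highest in both fractions, and Ryr1, Atp2a3 and Itpr3 lie lowest.

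Family make-up, as a share of the summed CPM per kb, is given for each of the 4 families. Itpr1 made up 87.1% ± 0.443 of IP3 receptor RNA in input and 91.5% ± 1.54 in IP, and Itpr2 made up 12.4% ± 0.434 and 8.21% ± 1.59. Ryr2 made up 65.1% ± 1.96 of ryanodine receptor RNA in input and 73.9% ± 8.01 in IP, and Ryr3 33.1% ± 1.59 and 22.3% ± 6.39. Atp2a2 made up 99.8% ± 0.0742 and 99.9% ± 0.127 of the SERCA RNA of these 2 genes. Stim1 made up 55.5% ± 1.00 of STIM RNA in input and 66.1% ± 4.8 in IP.

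Whether paralogs differed in their change was tested on the log2 ratio of their counts within each library, which no scaling of the libraries can move. Of 8 pairs, 3 had separate fractions. The Itpr1 to Itpr2 ratio was higher in IP by 0.69, the Ryr2 to Ryr3 ratio by 0.80 and the Stim1 to Stim2 ratio by 0.65 on the log2 scale. For each, the 2-sided exact permutation test gave p = 0.0286, which is the lowest value 70 arrangements of 4 and 4 libraries can reach. Adjusted over the 8 pairs it was 0.0762, which misses the threshold. The Stim1 to Stim2 log2 ratio was 0.22, 0.13, 0.12 and 0.09 in input and 1.15, 0.43, 0.91 and 0.68 in IP. In the other 5 pairs, each of which holds Itpr3, Ryr1 or Atp2a3, the fractions overlapped, with exact permutation p-values from 0.114 to 0.543 (n = 4 per fraction). These were the pairs with the widest IP spread, such as an SD of 3.17 for the Atp2a2 to Atp2a3 ratio.

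Promoter sequence is shown for 2 genes as reference, for Stim1 because it was the member that rose and for Ryr2 because it had the smallest adjusted p of those that fell. RNA libraries do not measure promoter activity. RefSeq (GRCm38.p6) promoters matched 7 of the 10 genes (all but Itpr1, Ryr3 and Atp2a2). Each run holds the 250 bases before the annotated start, 5′ to 3′ on the gene's strand. Capitals mark matches on either strand to the GC box GGGCGG, the CCAAT box CCAAT, the TATA box TATAAA or the short CRE motif TGACG, which also lies within the full CRE TGACGTCA.
Stim1 (chr7:102267569-102267818, plus strand): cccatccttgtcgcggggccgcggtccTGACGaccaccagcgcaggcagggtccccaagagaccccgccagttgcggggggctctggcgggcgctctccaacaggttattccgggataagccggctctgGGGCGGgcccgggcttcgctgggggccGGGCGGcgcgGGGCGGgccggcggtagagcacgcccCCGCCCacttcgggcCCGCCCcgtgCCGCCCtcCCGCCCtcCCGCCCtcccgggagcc
Ryr2 (chr13:12106946-12107195, minus strand): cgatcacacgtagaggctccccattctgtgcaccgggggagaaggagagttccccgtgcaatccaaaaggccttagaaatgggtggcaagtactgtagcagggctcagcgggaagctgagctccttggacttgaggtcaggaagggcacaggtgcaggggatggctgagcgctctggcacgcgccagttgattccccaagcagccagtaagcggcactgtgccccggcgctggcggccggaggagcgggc
The Stim1 run held 8 matches to the GC box and 1 to the short CRE motif, and its GC content was 78.4%. The Ryr2 run held no match to any of the 4 motifs, with a GC content of 63.2%. A GC box was present in 6 of the 7 matched promoters and in 32.7% of all 32851 promoters of the table. The TATA box was in 0 of the 7 and in 12.4% of all, the CCAAT box in 3 of the 7 and in 33.8% of all, and the short CRE motif in 1 of the 7 and in 17.8% of all. The full CRE was in 0 of the 7 and in 1.55% of all.

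Genes that work beside these 10 were followed in 9 lists of 131 distinct tested genes. In the counts below, the shares over all tested genes are the 24.5% higher and 20.9% lower given above. Of 13 tested genes of store-operated entry, 3 were higher and 4 lower, while 6 did not pass the threshold (median log2 fold change -0.21, beside -0.01 over all tested genes). With offsets 3 were higher and 2 lower, and the median was 0.10, beside 0.09 over all genes of that fit. Saraf, whose product limits STIM activation, was higher (0.93 ± 0.08, 75.5 ± 5.66 CPM in input and 144 ± 13.2 in IP). The pore gene Orai3 was higher as well (0.48 ± 0.15), while Orai2 was lower (-0.44 ± 0.11), and both had separate fractions. Orai3 missed the threshold with upper quartile factors (0.35, adjusted p = 0.0776), without input replicate 3 (0.43, 0.0649) and with offsets plus the replicate block (0.42, 0.0818). That last fit also ended the call of Orai2 (-0.32, 0.0868). The pore gene Orai1 had 1.66, 2.52, 2.33 and 2.35 CPM in input and 1.79, 2.89, 1.67 and 5.96 CPM in IP, so that 1 IP library stood above the rest (0.47 ± 0.43, adjusted p = 0.401). Without IP replicate 4 it stood at -0.06. Homer1, a scaffold that binds IP3 and ryanodine receptors, was lower (-0.49 ± 0.12), but stood at 0.10 with offsets (adjusted p = 0.598). The septin genes Sept4 (-1.53 ± 0.14) and Sept7 (-0.45 ± 0.06) were lower, with Sept7 at -0.11 with offsets (adjusted p = 0.241). Anxa6, an annexin gene, was higher (0.42 ± 0.14) and lost its call with upper quartile factors (0.29, 0.111) and without input replicate 1 (adjusted p = 0.068), input replicate 3 (0.0562) or IP replicate 4 (0.0726). The other members of the list, Esyt1 (-0.53), Esyt2 (-0.21), Tmem110 (-0.24), Tmem178 (0.28) and Tmem178b (-0.04), had adjusted p-values of 0.211 to 0.821, and Esyt2 was called lower with upper quartile factors (-0.35, 0.0492).

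Of 10 tested regulators and relatives of the SERCA pumps, 4 were higher and 1 lower (median 0.38). With offsets 5 were higher and 1 lower. Tmx4 (0.71 ± 0.05) and Tmx1 (0.89 ± 0.10), thioredoxin-related ER membrane proteins of which TMX1 is known to inhibit SERCA, were higher, Tmx4 from 297 ± 10.0 to 486 ± 11.9 CPM. Arln, the gene of a small SERCA-binding membrane protein listed in the table as 1810037I17Rik, was higher (0.83 ± 0.09). The secretory pathway pump gene Atp2c2 was higher at a low level (1.88 ± 0.64, 0.308 ± 0.150 CPM in input and 1.15 ± 0.734 in IP). Its adjusted p of 0.0324 rose above the threshold in 8 of the 17 alternative fits that kept the gene. Its relative Atp2c1 had 0.06 ± 0.10 (adjusted p = 0.666) and was called higher with offsets (0.47, 0.00375). Clgn, an ER chaperone gene, was lower (-1.11 ± 0.20). The muscle SERCA gene Atp2a1 and phospholamban, the gene Pln, did not pass the threshold (adjusted p = 0.473 and 0.0922), nor did Tmem203 (0.70, 0.177) and Mrln (-1.01, 0.549). Pln had 15, 64, 31 and 15 counts in input and 0, 18, 3 and 1 in IP. Atp2a1 was called lower without IP replicate 1 (-2.16, 0.0394), and Pln without IP replicate 2 (-4.43, 0.00544), with the replicate block (-3.40, 0.0371) and in limma-voom (-3.43, 0.0237). Mrln had 1, 1, 0 and 33 counts in IP, and it was called lower without IP replicate 4 (-4.95, 0.00207) and in limma-voom (-3.30, 0.0375). Each call without 1 library left out the IP library where that gene was highest (Atp2a1 0.938 CPM, Pln 0.34, Mrln 0.83). Atp2a1, Pln and Mrln passed the filter on low counts through input, which favours a call of lower, so these calls carry little weight.

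Upstream of the IP3 receptors, phospholipase C genes were lower or did not pass the threshold: 6 of 14 were lower and 0 higher (median -0.68). With offsets 5 were lower and 1 higher, which was Plcg1 (0.50, adjusted p = 0.0308, beside 0.33 and 0.135 without offsets). Plcb1 stood at 62.8, 71.8, 57.9 and 56.5 CPM in input and at 16.1, 15.5, 19.1 and 11.8 CPM in IP (-1.99 ± 0.14). Plcb4 (-1.40 ± 0.08) and Plce1 (-1.70 ± 0.20) were lower too. These 3 genes kept their calls with offsets, at -1.61, -1.09 and -1.32. Of 20 tested regulators of IP3 receptors and of IP3 breakdown, 9 were lower and 1 higher (median -0.65). Among them were Itprid2, which encodes a protein that anchors IP3 receptors (-2.66 ± 0.32), the IP3 kinase gene Itpkb (-0.89 ± 0.11) and Ahcyl1, the gene of the IP3 receptor inhibitor IRBIT (-0.65 ± 0.06). Erlin2, part of the complex that degrades activated IP3 receptors, was the gene that was higher (0.87 ± 0.12, 25.1 ± 1.43 CPM in input and 46.0 ± 7.56 in IP). With offsets 8 were lower and 2 higher, the second being its partner Erlin1 (0.46, adjusted p = 0.0397, beside 0.29 and 0.186). Plcg1 and Erlin1 were chosen after their values were seen.

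Around the ryanodine receptors, 6 of 16 tested genes were higher and 4 lower (median 0.03), and with offsets 7 were higher and 3 lower. Fkbp1a, the gene of the ryanodine receptor subunit FKBP12, went from 224 ± 4.01 CPM in input to 418 ± 22.3 in IP (0.90 ± 0.06), and its paralog Fkbp1b was higher by 0.94 ± 0.13. Selenon, an ER selenoprotein gene, was higher (0.82 ± 0.15). Cd38, which encodes an enzyme that makes cyclic ADP-ribose, was lower (-1.51 ± 0.19), as was the counter-ion channel gene Tmem38b (-1.03 ± 0.29). Jsrp1, a junctional protein gene of muscle, had 12, 43, 13 and 10 counts in input and 0, 0, 0 and 2 in IP. It is among the 4 lower genes but passed the filter on low counts through input alone, so only a fall could be called.

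In the lumen, genes of calcium-binding and chaperone proteins were mostly higher: 11 of 17 were higher and 2 lower (median 0.53), with the same numbers higher and lower with offsets. Rcn1 (1.34 ± 0.10) and Nucb1 (1.24 ± 0.11), calcium-binding proteins of the secretory pathway, and Sdf4 (0.63 ± 0.06) had the smallest p. Rcn1 stood between 22.8 and 25.6 CPM in input and between 54.5 and 67.6 CPM in IP. Calu, the calumenin gene, was lower (-0.74 ± 0.18). Casq2, the calcium buffer of the heart muscle store, had 47, 62, 37 and 57 counts in input and 0, 0, 0 and 1 in IP. It is among the 2 lower genes, and it too passed the filter on low counts through input alone. Of 13 genes of ER calcium leak and its control, 6 were higher and 1 lower (median 0.50), among them the presenilin gene Psen2 (1.33 ± 0.20), Tmbim4 (1.04 ± 0.13) and Faim2 (0.84 ± 0.07), with Tmbim1 lower (-1.29 ± 0.29). For the leak genes the numbers with offsets were also 6 higher and 1 lower.

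Plasma membrane calcium export was lower for 6 of 11 genes and higher for 1 (median -0.85), and with offsets 3 were lower and 1 higher. The exchanger gene Slc24a2 (-1.57 ± 0.13) and the pump genes Atp2b2 (-0.87 ± 0.09) and Atp2b4 (-0.85 ± 0.12) were lower, and the sodium-calcium exchanger gene Slc8a2 was higher (0.75 ± 0.17). Of 17 genes of ER and mitochondria contacts, 6 were higher and 1 lower (median 0.16), and with offsets 7 were higher and 2 lower. The ER tether gene Vapb (0.57 ± 0.06), Bcap31 (1.12 ± 0.15) and its partner at the mitochondrial surface, Fis1 (0.72 ± 0.06), were higher, and the sorting protein gene Pacs2 was lower (-0.58 ± 0.09).

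**Figure D5:**
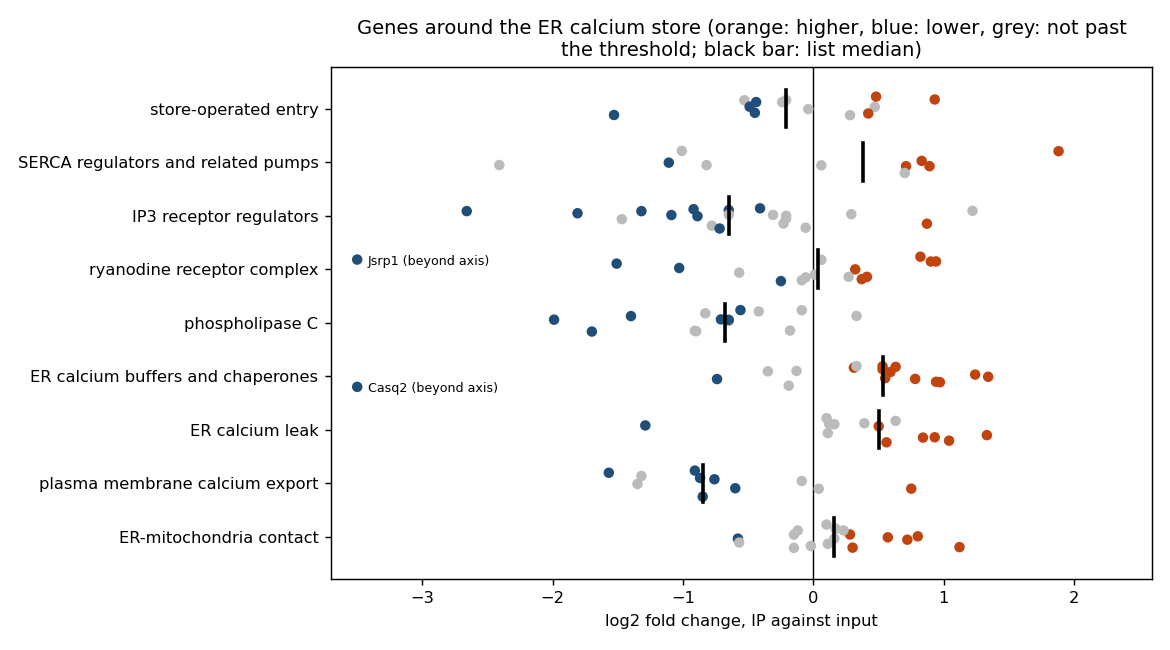
Log2 fold change of IP against input (horizontal axis) for each tested gene of the 9 lists (rows), with genes higher in IP in orange, genes lower in IP in blue and the others in grey, and the median of each list as a black bar. Jsrp1 and Casq2, with 2 and 1 counts in all IP libraries together, are drawn at the left edge of the axis. The list medians run from -0.85 for plasma membrane export to 0.53 for luminal buffers and chaperones.

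Markers of other hypothalamic cell types were followed in 7 lists. All 12 astrocyte markers were lower in IP (median -1.61), with a summed level of 2780 to 3450 CPM in input and 828 to 1140 CPM in IP. All 12 oligodendrocyte markers (median -1.74; 2240 to 2820 CPM and 631 to 925 CPM) and all 8 oligodendrocyte precursor markers (median -1.82; 173 to 199 CPM and 44.6 to 64.1 CPM) were lower. So were 10 of 12 microglia markers (median -1.60; 84.6 to 102 CPM and 30.8 to 42.4 CPM) and 17 of 20 markers of other hypothalamic neurons (median -1.74; 884 to 1080 CPM and 305 to 415 CPM). Of 15 vascular and smooth muscle markers 4 were lower (median -1.41; 41.7 to 56.0 CPM and 13.8 to 38.0 CPM), and of 11 tanycyte and ependymal markers 6 were lower (median -1.30; 57.5 to 61.6 CPM and 27.9 to 38.7 CPM). No marker of these 7 lists was at 0 in every IP library. At 0 in at least 1 IP library were 6 vascular and smooth muscle, 2 other hypothalamic neuron and 1 tanycyte and ependymal markers. Ryr3, at -1.78, lay within the range of these 7 medians, -1.82 to -1.30, and Itpr2, Ryr2, Itpr1 and Atp2a2 lay above it. The part of other cell types in the falls of the store genes was not tested.

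The genes with the most similar profile over the 8 libraries were taken as those with the smallest root mean square difference of centred log2 CPM, among 8126 genes of at least 10 CPM. For Itpr1 these were Erc1 (0.056), Ccdc132 (0.060) and Pak1 (0.065), where the median over all genes was 0.438. For Ryr2 they were Stxbp5l (0.095), Cnr1 (0.11) and Sept6 (0.11), against a median of 0.669. For Atp2a2 they were Cst3 (0.092), Thy1 (0.093) and Fam107a (0.10), against 0.405. The profiles are led by the difference between the fractions, as in a log2 fold change of -0.52 for Erc1 beside -0.55 for Itpr1.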

How the data were processed

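The values deposited by the authors were raw estimated counts for each gene. The tool Salmon 0.14.1 and the build GRCm38.p6 are named per the submitters' processing notes. Which annotation release, read trimming or strand option was chosen is not given in the sources used here. Groups and replicate numbers came from the sample titles. Estimated counts were rounded to whole numbers. The test was run in edgeR 4.0.16 (R 4.3.3; filterByExpr with a minimum count of 10, TMM factors, quasi-likelihood test of IP against input, no covariate). P-values were adjusted over all 17000 tested genes by the Benjamini-Hochberg method (threshold 0.05). On simulated counts the signs and sizes of changes were recovered, but many changed genes were missed, more so the smaller changes, and DESeq2 made more false calls than its threshold allows. The SE was taken as the size of the log2 fold change over the root of its F statistic. Lengths, GC content and coordinates came from GENCODE M21 (GRCm38). Offsets were per-library loess fits over 16901 genes. Log2 CPM centred on each gene's own mean was fitted on GC content and log2 length. Paralog ratios (counts + 0.5) were compared by exact permutation tests in scipy 1.17.1. Replicates of 1 fraction are separate pools per the labels, which do not say whether an input and an IP share one, and no pair held identical values. The members, lists and the rule for named genes (the 3 smallest p in each direction per list, and whole lists for store-operated entry and SERCA regulators) were chosen with earlier results of these data known. Alternatives were other scalings, filters, DESeq2 1.42.0, limma-voom 3.58.1, the replicate block, offsets and leaving out each library.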

Additional observations from a re-analysis of the deposited data

Results flagged for a closer look

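The log2 ratio of Itpr1 to Itpr2 in IP replicate 3 was 3.76, far from the 3.08 to 3.09 of the other 3 IP libraries. The gap to the nearest of the others was 0.985 of the range of the group, above the 95% critical value of Dixon's test for 4 libraries. It is the same library in which Itpr2 had its lowest level, 4.10 CPM. Without it the ratio was higher in IP by 0.52. The check ran over 40 groups of 4 libraries, of which chance flags about 1 in 20.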

How the results depend on the processing

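Over 18 alternative fits, Stim1, Itpr2, Ryr2 and Ryr3 kept their direction and call, and Itpr1 and Atp2a2 kept their direction. With GC and length offsets the number of store genes called lower was 3 in place of 5, since Itpr1 and Atp2a2 lost their calls. Over all genes that fit called 2803 lower and 4890 higher of 16901. Itpr1 also lost its call with offsets and the replicate block (-0.18, adjusted p = 0.0921), where Atp2a2 kept it (-0.20). Atp2a3, which passed the filter on low counts through input, was called lower in limma-voom alone (-3.36, adjusted p = 0.0435). Ryr1 changed sign with library totals alone (0.07), with offsets (0.33) and without some single libraries (-0.44 to 0.31 over all 8). Stim2 did so with library totals alone (0.03), with offsets (0.18, or 0.13 with the replicate block) and without some single libraries (-0.20 to 0.08 over all 8). Esyt2 (0.10 in both offset fits), Homer1 (0.10 and 0.09) and Tmem178b (0.06 with library totals, 0.11 and 0.09 with offsets, -0.18 to 0.05 without single libraries) changed sign, as did Atp2c1 (-0.07 with upper quartile factors, -0.03 to 0.13 without single libraries) and Orai1 (-0.06 without IP replicate 4, up to 0.68 without others). Scaling moved the median of all genes by -0.13 with upper quartile factors, 0.10 with library totals and 0.11 with offsets, and by -0.25 with no gene filter (28376 genes). The share of called genes that were higher was 54.1%, 43.3% with upper quartile factors, 61.6% with library totals and 63.6% with offsets. Same-numbered input and IP libraries correlated weakly in their deviations from the group means (0.0484 to 0.0836), each best with its own number. Differently numbered ones ran from -0.0379 to -0.00165. The same-numbered values were under the 0.1 required, so the main fit used no pairing, though same-numbered libraries may share a pool. With the replicate block 3878 genes were higher and 3714 lower, beside 4171 and 3545, and the store genes called were again 1 and 5. Paralog ratios kept their direction in every setting. With the replicate block their sign-flip permutation cannot give a p below 0.125, nor can the exact test without 1 library give one below 0.0571. Itpr3, Ryr1 and Atp2a3 had at most 126 counts in any library, with 7 to 126 for Ryr1 in IP, and counting error was not separated from the spread between libraries.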
